A study of Mus musculus with 6 samples.

Results

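Potassium channel genes were followed in bulk RNA sequencing of sorted skin cells from newborn mice (postnatal day 0), in 3 libraries labelled Ring1a/b 2KO (genotype Ring1a-/- Ring1b-/-) and 3 labelled control. The members were chosen by gene symbol: every row whose symbol begins with Kcn, further letters and a digit, without 2 such symbols set apart by that rule. This gave 95 of the 24453 gene rows. No expression value entered the choice of a single member, but the family was taken up with results of this same comparison known, so its counts and calls describe the genes and support no statement about the family. By the usual division, 52 members belong to the voltage-gated class, 15 are inward rectifiers, 13 are two-pore channels, 12 belong to the calcium-activated class, and 3 are noncoding transcripts named for the opposite strand of a channel gene. RING1A (gene Ring1) and RING1B (gene Rnf2) are the ubiquitin ligases of Polycomb repressive complex 1. What genotype the control animals carried, which part of either gene was removed, in which cells, and whether animals were pooled are points the sources used here do not give. Nothing in the labels says that libraries of a group came from separate animals, so that p-values measure only the spread between these libraries. Xist, the RNA of the inactive X chromosome, measured 5361, 4952 and 10.4 CPM in libraries labelled 2KO and 2.48, 9.27 and 4555 CPM in those labelled control. High and low libraries thus occur in both groups, unequally, and the libraries of a group are not all repeats of 1 RNA.

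Potassium channels let potassium leave or enter a cell along its gradient and so set the resting membrane potential. Voltage-gated channels open on depolarization and are best known from neurons and muscle. Inward rectifiers and two-pore channels hold the resting potential in many cell types, epithelia among them. Calcium-activated channels couple membrane potential to calcium inside the cell. Most of these channels are assembled from several pore-forming subunits, and some also carry auxiliary subunits that alter their gating or their transport to the membrane. In skin, potassium gradients and calcium signals accompany keratinocyte differentiation.

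The libraries held between 24.8 M and 30.8 M counts, so that 1 count was worth between 0.0323 and 0.0392 CPM (the usual scaling of counts to library size, here with TMM factors). Counts of the targeted genes did not follow the labels in every library. Ring1 measured 1.84, 7.34 and 14.1 CPM in libraries labelled 2KO, against 19.5, 22.4 and 3.37 CPM in those labelled control. It was thus higher in 2KO replicate 3 than in control replicate 3. Rnf2 was at 75.3, 66.4 and 89.2 CPM under the 2KO label, against 67.7, 79.5 and 47.1 CPM under the control label (edgeR adjusted p = 0.537 for Ring1 and 0.615 for Rnf2). As the removed part of either gene is not given, counts over a whole gene cannot show whether it was deleted. Each direction below is therefore one between libraries so labelled, and lead counts are also given without the replicate-3 libraries. The labels call the cells hair follicle cells, while the protocol attached to them describes a gate for interfollicular epidermis. Genes of the sort markers read 282 ± 65.7 CPM under the 2KO label and 195 ± 51.8 CPM under the control label for Epcam, and 973 ± 108 CPM under the 2KO label and 782 ± 97.1 CPM under the control label for Itga6 (SD, n = 3 each), while Ly6a, which encodes Sca1, lay between 1.92 and 7.28 CPM under the 2KO label and between 3.02 and 5.62 CPM under the control label. Markers of basal keratinocytes, summed over 6 genes, lay between 19229 and 27246 CPM in libraries labelled 2KO and between 14007 and 25744 CPM in those labelled control, and none of the 6 passed the test. Of 8 genes of hair matrix and inner root sheath 7 fell, of 6 of outer root sheath and bulge 1 fell (Lgr5), and of 5 sebocyte genes 1 fell (Mgst1). The 4 suprabasal genes did not pass, with sums between 810 and 2997 CPM under the 2KO label, against 2861 to 10776 CPM under the control label. Among lists of other cells, none of 5 tested Schwann and nerve genes, 6 tested melanocyte genes, 4 endothelial or 3 immune genes passed. In bulk RNA, fewer cells of a type and less RNA per cell cannot be told apart.

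Many potassium channel genes were higher in the libraries labelled 2KO. Of the 95 members 60 had enough counts to be tested, and of these 18 rose, 2 fell and 40 did not pass the threshold (edgeR quasi-likelihood test, adjusted p under 0.05 over all 14972 tested genes). Of all tested genes 9.02% passed, 6.61% as higher and 2.42% as lower. The rises included Kcna1, Kcnd3, Kcnq5 and Kcnma1, which encode pore-forming subunits, and the falls were those of Kcnj16, an inward rectifier, and Kcnv1, an electrically silent subunit. Values of both groups were fully apart in 28 of the 60 tested members, in 25 with the libraries labelled 2KO above and in 3 below, while 28.4% of all tested genes showed no overlap. The median log2 fold change of 2KO over control was 0.95 over the tested members and -0.02 over all tested genes. A member silent in one group entered the test only if it was high in the other. Neither this median nor the count of rises is therefore a measure of all 95 members. The number of risen members was 12 without 2KO replicate 3, and 4 once both libraries numbered 3 were dropped (Kcna1, Kcnd3, Kcnip1 and Kcnj4), a comparison in which 2.52% of all genes passed and 1 member fell (Kcnj16). In that comparison Xist was at 5361 and 4952 CPM under the 2KO label, against 2.48 and 9.27 CPM under the control label. Xist level and label cannot be told apart there. Without control replicate 2, control replicate 3, 2KO replicate 1 or 2KO replicate 2, 1 member fell.

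**Figure D1:**
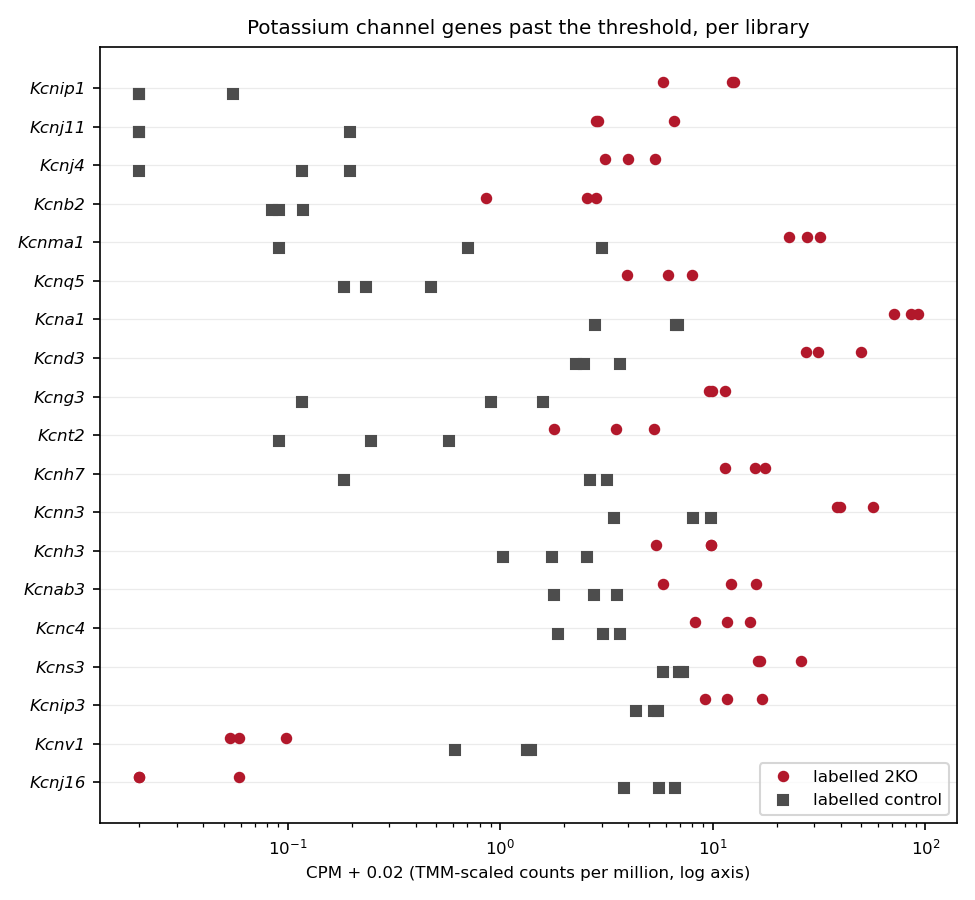
CPM of 19 of the 20 potassium channel genes past the threshold, 1 row per gene, with a point for each library on a log axis (0.02 added so that 0 can be drawn). Circles are the 3 libraries labelled 2KO and squares the 3 labelled control, and for each of the 19 genes the 2 sets of points do not overlap.

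In libraries labelled control, 8 of the 18 risen members averaged under 1 CPM. Kcnip1, which encodes a calcium-binding protein that joins Shal-type channels, and Kcnj4, which encodes a strong inward rectifier of brain and muscle, were among them. The promoter windows of Kcnip1, Kcnj4, Kcnma1 and Kcnj16, which had the largest changes among called members with a mean of at least 1 CPM and a matched sequence, are shown because Polycomb complexes are known to bind promoters rich in CpG. Each window runs from 250 bases before to 50 after a RefSeq transcript start (GRCm38.p6), 5′ to 3′ on the gene's strand, with every CpG in capitals. Where a gene had several starts the one with the most CpG is shown. The window of Kcnip1 (chr11:33843637-33843936, minus strand, 1 of 3 starts) holds 16 CpG, that of Kcnj4 (chr15:79505192-79505491, minus strand) 41, that of Kcnma1 (chr14:24004156-24004455, minus strand) 36, and that of Kcnj16 (chr11:110997237-110997536, plus strand, 1 of 4 starts) 8.
Kcnip1: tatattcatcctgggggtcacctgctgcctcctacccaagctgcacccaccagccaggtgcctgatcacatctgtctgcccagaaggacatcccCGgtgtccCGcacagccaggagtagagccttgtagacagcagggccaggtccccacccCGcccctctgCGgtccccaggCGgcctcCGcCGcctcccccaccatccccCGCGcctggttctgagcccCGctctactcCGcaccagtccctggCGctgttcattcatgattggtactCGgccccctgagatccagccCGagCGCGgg
Kcnj4: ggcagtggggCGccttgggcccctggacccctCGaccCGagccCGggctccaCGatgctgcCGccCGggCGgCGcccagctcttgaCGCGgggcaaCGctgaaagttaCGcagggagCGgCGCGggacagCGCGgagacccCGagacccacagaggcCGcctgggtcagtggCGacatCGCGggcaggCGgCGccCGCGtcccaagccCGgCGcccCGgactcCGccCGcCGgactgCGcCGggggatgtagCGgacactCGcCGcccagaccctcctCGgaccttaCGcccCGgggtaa
Kcnma1: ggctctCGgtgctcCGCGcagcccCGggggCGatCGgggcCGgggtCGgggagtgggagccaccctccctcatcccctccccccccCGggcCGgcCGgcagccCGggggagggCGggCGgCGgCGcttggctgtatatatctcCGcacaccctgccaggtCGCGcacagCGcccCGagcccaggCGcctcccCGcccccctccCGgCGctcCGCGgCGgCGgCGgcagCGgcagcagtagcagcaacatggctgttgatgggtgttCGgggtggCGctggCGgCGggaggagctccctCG
Kcnj16: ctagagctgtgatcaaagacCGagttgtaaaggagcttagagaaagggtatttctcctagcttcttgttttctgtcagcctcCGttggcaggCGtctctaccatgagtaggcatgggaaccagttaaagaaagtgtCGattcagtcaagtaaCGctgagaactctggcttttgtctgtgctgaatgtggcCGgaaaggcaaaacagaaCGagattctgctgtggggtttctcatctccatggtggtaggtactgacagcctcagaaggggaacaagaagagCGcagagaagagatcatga

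By the measure that follows, the windows of Kcnj4 and Kcnma1 were CpG-rich and those of Kcnip1 and Kcnj16 were not. RefSeq windows were matched for 70 of the 95 members. A window was called CpG-rich where G and C made up at least 50% of its bases and CpG was at least 0.6 of the number its base composition predicts. By this measure 8 of 12 risen members with a window were CpG-rich (66.7%), and so were 11 of 30 members that did not pass (36.7%) and 7 of 27 that were too low to test (25.9%). The single fallen member with a window, Kcnj16, was not. Of all tested genes with a window 68.8% were CpG-rich, and of all genes that rose 71.5%, so the share among risen channel genes lay close to that among tested genes. These shares are a description, and no factor's binding was measured here.

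**Figure D2:**
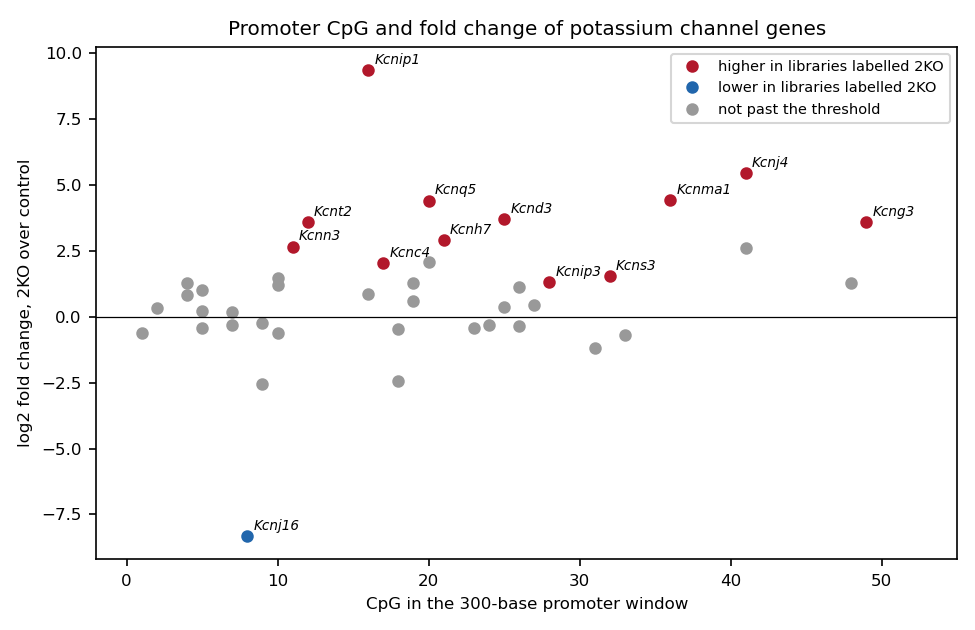
Number of CpG in the 300-base promoter window (x axis) against the log2 fold change of 2KO over control (y axis), 1 point per tested potassium channel gene with a RefSeq window. Red points are the 12 risen genes with a window, which hold between 11 and 49 CpG, the blue point is Kcnj16 with 8, and grey points did not pass the threshold and hold between 1 and 48.

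The voltage-gated class held most of the called members and also most of the tested ones. Called were 42.4% of its tested members, 27.3% of tested inward rectifiers, 0% of two-pore genes and 33.3% of the calcium-activated class. Of all tested genes 9.02% were called. The voltage-gated class had 13 rises, 1 fall and 19 members not passed among 33 tested. Its pore-forming genes accounted for 8 rises among 20 tested and no fall. Kcna1 (chromosome 6, 126640397 to 126646384, minus strand) encodes a Shaker-type channel of axons. It measured 71.2, 85.8 and 92.4 CPM in libraries labelled 2KO, against 6.71, 6.81 and 2.78 CPM in those labelled control. Every library labelled 2KO stood far above all 3 others, and the log2 fold change was 3.94, with an SE of 0.36 (adjusted p = 0.000431 by edgeR). Its neighbours on the same strand were close to silent in all 6 libraries: Kcna5 and Kcna6, 105 and 61.9 kb away, reached at most 0.0392 and 0.471 CPM in any library and were not tested. Of the other 5 Shaker-type genes, Kcna2, Kcna4 and Kcna7 did not pass (adjusted p = 0.725, 0.148 and 0.525), and Kcna3 and Kcna10 were also too low to test.

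Kcnb2 (chromosome 1, 15287254 to 15723750), a Shab-type gene whose channels carry a delayed rectifier current in neurons, rose. It measured 2.55, 0.834 and 2.79 CPM in libraries labelled 2KO, against 0.071, 0.0646 and 0.0981 CPM in those labelled control. It was close to silent in all 3 libraries labelled control, and its log2 fold change was 4.64 (SE 0.91, edgeR adjusted p = 0.0126). Its call was lost without control replicate 2 (adjusted p = 0.0509) and without control replicate 3 (0.0506). Modifier subunits form no working channel alone and are known to assemble with Shab-type subunits. Of 5 tested modifiers 2 rose and 1 fell. Kcns3 was at 16.3, 16.7 and 26.0 CPM under the 2KO label, against 6.92, 7.23 and 5.82 CPM under the control label (1.56 on the log2 scale, SE 0.30, adjusted p = 0.011 by edgeR), and Kcng3 at 9.61, 9.85 and 11.4 CPM under the 2KO label, against 1.56, 0.0969 and 0.883 CPM under the control label (3.6, SE 0.74, adjusted p = 0.016). Kcng3 varied widely among the libraries labelled control, and its call was lost on dropping 2KO replicate 3 (0.0515) or control replicate 3 (0.0513). Without control replicate 1 its log2 fold change was 4.40.

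Kcnv1 moved the other way. It held 1, 1 and 2 counts in the libraries labelled 2KO, against 39, 41 and 18 counts in those labelled control, with a log2 fold change of -4.35 (SE 1.00, edgeR adjusted p = 0.0255). The groups were well apart but the counts were few, and no fit that dropped a library kept the call. Adjusted p was 0.0803, 0.106 and 0.0643 on dropping 2KO replicates 1, 2 and 3, and 0.102, 0.0951 and 0.0613 on dropping control replicates 1, 2 and 3. With all 6 libraries the call was also lost with a replicate block (0.0605) and with Xist as a covariate (0.0679).

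Among Shal-type genes, which encode the fast transient current of dendrites and heart muscle, Kcnd3 (chromosome 3, 105452330 to 105674002) rose, at 31.3, 27.3 and 49.9 CPM in libraries labelled 2KO against 3.62, 2.45 and 2.26 CPM in those labelled control (3.70 on the log2 scale, SE 0.35, adjusted p = 0.000467 by edgeR). Kcnd3os, a noncoding transcript that shares 165 bases of exon with Kcnd3 on the other strand, held 5, 19 and 8 counts under the 2KO label, against 0, 0 and 1 under the control label, and was too low to test. Strand use in the counting is not stated, so reads in the shared stretch cannot be assigned to either gene. In all, 8 of the 20 called members share some exon with a gene on the other strand. Kcnd1 and Kcnd2 did not pass (adjusted p = 0.934 and 0.551). Shal channels are joined by KChIP proteins, and 2 of the 4 KChIP genes rose. Kcnip1 (chromosome 11, 33629339 to 33993152), whose promoter window is printed above, measured 12.5, 12.3 and 5.81 CPM in libraries labelled 2KO. The libraries labelled control held 1 count of it in all, a ratio of 928 (95% exact counting interval 166 to 36695, edgeR adjusted p = 0.000417). Kcnip3, which also acts in the nucleus as a calcium-dependent repressor, was at 9.18, 17.0 and 11.7 CPM under the 2KO label, against 5.29, 5.52 and 4.32 CPM under the control label (log2 fold change 1.33, SE 0.34, adjusted p = 0.04). This was the smallest of the 18 rises, and its call was lost on dropping 2KO replicate 2 or 3 (0.163 and 0.0776) or control replicate 1, 2 or 3 (0.0906, 0.0864 and 0.137), and with Xist as a covariate (0.0853). Kcnip2 and Kcnip4 did not pass (adjusted p = 0.719 and 0.907).

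Kcnc4, a Shaw-type channel gene of fast-firing neurons, measured 14.9, 11.7 and 8.2 CPM in libraries labelled 2KO against 3.02, 1.84 and 3.63 CPM in those labelled control (2.04 on the log2 scale, SE 0.40, adjusted p = 0.0134 by edgeR). Of the genes of the M-current family, Kcnq5 was at 7.96, 3.91 and 6.12 CPM under the 2KO label, against 0.213, 0.452 and 0.163 CPM under the control label (log2 fold change 4.41, SE 0.64, adjusted p = 0.00311).

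The ether-a-go-go family gave 2 rises among 6 tested genes. Kcnh3 measured 5.37, 9.78 and 9.81 CPM in libraries labelled 2KO against 1.74, 2.55 and 1.01 CPM in those labelled control (2.23 on the log2 scale, SE 0.49, adjusted p = 0.0206 by edgeR). Its call was lost on dropping 2KO replicate 2 or 3 (0.0731 and 0.0676) or control replicate 1 or 3 (0.0566 and 0.0655). Kcnh7 was at 11.4, 17.5 and 15.7 CPM under the 2KO label, against 3.16, 2.62 and 0.163 CPM under the control label (2.91, SE 0.76, adjusted p = 0.0437). The low value of control replicate 3 widened that group, and the call was lost on dropping 2KO replicate 1, 2 or 3 (0.0597, 0.11 and 0.105) or control replicate 1 or 2 (0.0572 and 0.0777). Kcnh7 shares 696 bases of exon with Gca on the other strand, which lay between 15.5 and 26.2 CPM in libraries labelled 2KO and between 1.81 and 12.2 CPM in those labelled control. The part of this overlap in the result was not tested. Kcnab3, a beta subunit of Shaker-type channels, was at 5.8, 12.2 and 16.0 CPM under the 2KO label, against 3.51, 2.74 and 1.77 CPM under the control label (2.09, SE 0.47, adjusted p = 0.0229), and lost its call on dropping 2KO replicate 2 or 3 (0.0695 and 0.0859) or control replicate 2 or 3 (0.0606 and 0.0787). Kcnab1 and Kcnab2 did not pass (adjusted p = 0.89 and 0.815). Of the MinK-type auxiliary genes, which are small subunits with a single membrane pass, Kcne4 alone was tested and did not pass (-2.54, adjusted p = 0.173).

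**Figure D3:**
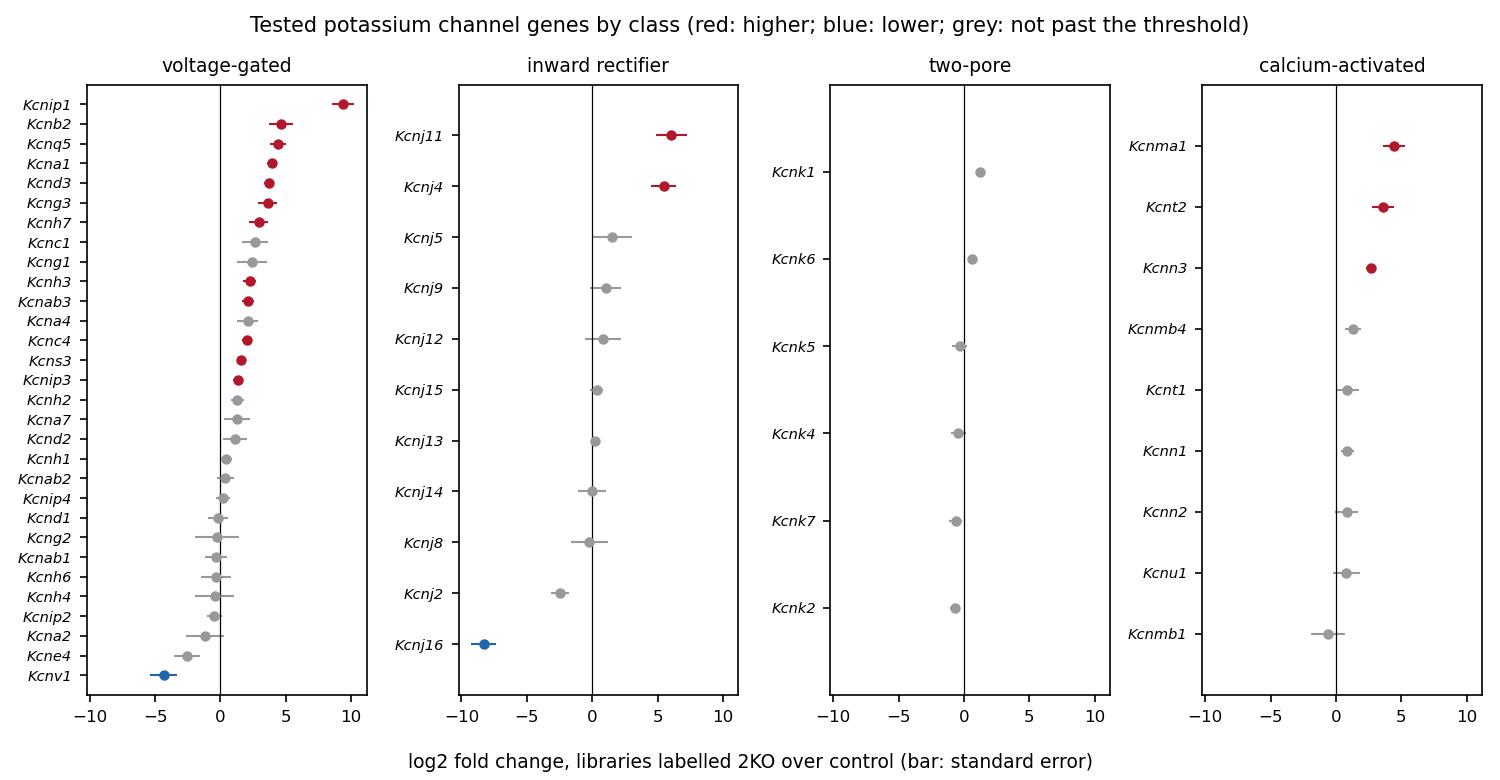
Log2 fold change of libraries labelled 2KO over control, with its standard error as a bar, for tested members of the 4 channel classes, 1 panel per class, with 1 risen and 2 not passed voltage-gated genes not drawn. Red genes rose, blue genes fell and grey genes did not pass the threshold. The drawn voltage-gated genes show 12 rises and 1 fall, inward rectifiers 2 and 1, two-pore genes none, and calcium-activated genes 3 rises.

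Inward rectifiers changed in both directions, with 2 rises, 1 fall and 8 members not passed among 11 tested. Kcnj11 (chromosome 7, 46093953 to 46100764, minus strand) encodes the pore of the ATP-sensitive potassium channel. It measured 6.55, 2.80 and 2.86 CPM in libraries labelled 2KO, while those labelled control held 5, 0 and 0 counts (6.05 on the log2 scale, SE 1.18, adjusted p = 0.0123 by edgeR). Abcc8, which encodes the sulfonylurea receptor that surrounds this pore, lies 3.76 kb away on the same strand and was at 33.0, 41.9 and 34.8 CPM under the 2KO label, against 0.532, 2.58 and 0.163 CPM under the control label (5.05, SE 0.77, adjusted p = 0.004). Without control replicate 2, the highest of the control libraries, the log2 fold change of Abcc8 was 6.71, and without control replicate 1 no control library holds a count of Kcnj11. Pore and receptor genes of this channel, which are neighbours, were thus both higher in all 3 libraries labelled 2KO than in any labelled control. The other sulfonylurea receptor gene, Abcc9, did not pass (-0.18, adjusted p = 0.952), and neither did Kcnj8, which encodes the other pore of such channels (-0.22, adjusted p = 0.96). Kcnj4 (chromosome 15, 79483714 to 79505241) was at 5.33, 3.97 and 3.10 CPM under the 2KO label, against 0.177, 0.0969 and 0 CPM under the control label (5.45, SE 0.94, adjusted p = 0.0073), and had a log2 fold change of 6.31 without control replicate 1.

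Kcnj16 (chromosome 11, 110968033 to 111027968, plus strand) encodes a subunit that joins other inward rectifiers and makes them sensitive to pH. It held 0, 0 and 1 counts in the libraries labelled 2KO, against 187, 117 and 170 counts (6.63, 3.78 and 5.56 CPM) in those labelled control. The ratio of control over 2KO was 428 (95% exact counting interval 76.4 to 16922, edgeR adjusted p = 0.00113), and this call was kept in all 14 alternatives. Its neighbour Kcnj2, 38.2 kb downstream on the same strand, encodes a strong inward rectifier of muscle and heart. Kcnj2 was also lower in every library labelled 2KO, at 1.76, 0.868 and 4.16 CPM under the 2KO label, against 4.65, 21.8 and 10.5 CPM under the control label, but missed the threshold (log2 fold change -2.44, SE 0.69, adjusted p = 0.0575). By edgeR, Kcnj2 passed without control replicate 1 (0.0332) and without 2KO replicate 3 (0.0431). With all 6 libraries it passed by DESeq2 (adjusted p = 0.00147), and by edgeR without a low-count filter (0.0176) and with a replicate block (0.0478). It missed the threshold in 9 of 14 alternatives. Without control replicate 2 the log2 fold change was -1.74 (edgeR adjusted p = 0.209). In the same libraries 7 of 8 hair matrix and inner root sheath genes fell, with a summed level between 109 and 155 CPM in libraries labelled 2KO and between 256 and 381 CPM in those labelled control. The sum is carried by Dlx3, Tchh and Msx2, while the 5 keratin genes of the list were nearly lost. Krt25 measured 0, 0 and 0 CPM in libraries labelled 2KO against 25.8, 10.6 and 18.7 CPM in those labelled control, and Krt28 measured 0.0392, 0 and 0 CPM in libraries labelled 2KO against 24.9, 15.9 and 24.4 CPM in those labelled control. Krt27, Krt71 and Krt73 had log2 fold changes of -5.85, -5.85 and -6.06. The part of these 8 markers in the lower levels of Kcnj16, Kcnj2 and Kcnv1 was not tested.

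In both groups the highest mean level per length was that of an inward rectifier too. Kcnj15, known from kidney and other epithelia, measured 34.0, 149 and 204 CPM in libraries labelled 2KO and 88.7, 124 and 89.6 CPM in those labelled control. The groups overlapped, 2KO replicate 1 being lowest of all 6, and the gene did not pass (0.35 on the log2 scale, SE 0.50, adjusted p = 0.759 by edgeR). Without 2KO replicate 3 its fold change turned to -0.11. In 2KO replicate 1 it made up 5.48% of the summed level per kb of all pore and modifier genes, below Kcnk1, Kcna1 and Kcnj13. It made up 18.2% and 22.9% in 2KO replicates 2 and 3. Kcnj5, a subunit of G protein-gated channels, did not pass either (1.49, SE 1.54, adjusted p = 0.662). Kcnj13, a channel gene of retinal pigment epithelium and choroid plexus, was at 9.33, 9.48 and 13.8 CPM under the 2KO label, against 11.4, 6.84 and 9.78 CPM under the control label (0.22, SE 0.32, adjusted p = 0.77). Reads of Kcnj13 are uncertain, since 623 of its 1270 bases of exon are shared with Gigyf2 on the other strand, which lay between 165 and 205 CPM in libraries labelled 2KO and between 200.0 and 219 CPM in those labelled control.

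None of the 6 tested two-pore channel genes passed the threshold, by edgeR's quasi-likelihood test. Of the 6, Kcnk1 alone had an unadjusted p under 0.05, and it was the single two-pore gene called by DESeq2. Kcnk1, a weakly rectifying leak channel gene, measured 37.1, 43.2 and 31.2 CPM in libraries labelled 2KO against 13.6, 24.4 and 9.91 CPM in those labelled control. These values did not overlap (1.22 on the log2 scale, SE 0.33, adjusted p = 0.0526 by edgeR), and the gene passed without control replicate 2 (0.0136). Its relative Kcnk6 was at 15.5, 23.7 and 18.4 CPM under the 2KO label, against 11.1, 16.1 and 11.2 CPM under the control label (0.58, SE 0.28, adjusted p = 0.273). Kcnk2, which encodes a channel opened by stretch and warmth, was at 13, 15.5 and 12.3 CPM under the 2KO label, against 11.3, 29.7 and 24.8 CPM under the control label (adjusted p = 0.3). Kcnk4, Kcnk5 and Kcnk7 lay between 1.29 and 8.5 CPM in every library, with adjusted p values of 0.737, 0.803 and 0.54. Whether two-pore genes passed less often than voltage-gated genes was not tested.

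Of 9 tested members of the calcium-activated class 3 rose and 6 did not pass, none of these 6 with an unadjusted p under 0.05 by edgeR. Kcnn3 (chromosome 3, 89520164 to 89675132), a channel gene of small conductance known from neurons and smooth muscle, measured 38.5, 39.7 and 56.7 CPM in libraries labelled 2KO against 9.79, 3.39 and 8.04 CPM in those labelled control (2.67 on the log2 scale, SE 0.39, adjusted p = 0.00328 by edgeR). Kcnma1 (chromosome 14, 23289431 to 24014491) encodes the channel of large conductance, opened jointly by calcium and voltage. It was at 27.7, 22.9 and 31.9 CPM under the 2KO label, against 0.071, 3.0 and 0.687 CPM under the control label (4.44, SE 0.86, adjusted p = 0.0122). The libraries labelled control differed widely among themselves for Kcnma1, yet all stayed below those labelled 2KO, and without control replicate 2 the log2 fold change was 6.14. Kcnt2, a relative opened by sodium, stood at 1.76, 3.50 and 5.26 CPM under the 2KO label, against 0.071, 0.226 and 0.556 CPM under the control label (3.6, SE 0.85, adjusted p = 0.0293), and lost its call on dropping 2KO replicate 2 or 3 (0.0762 and 0.101) or control replicate 1 or 2 (0.0654 and 0.0865), and with Xist as a covariate (0.0581). Without control replicate 3 the log2 fold change of Kcnt2 was 4.51. Of the subunits that join Kcnma1, Kcnmb4 was at 3.10, 1.8 and 4.2 CPM under the 2KO label, against 1.81, 0.904 and 0.981 CPM under the control label and did not pass (1.30, SE 0.61, adjusted p = 0.259). Kcnn1 was at 3.25, 4.14 and 2.82 CPM under the 2KO label, against 1.38, 2.2 and 1.99 CPM under the control label (adjusted p = 0.367).

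Levels of different genes were compared per length, as CPM per kb of merged exon. Summed over the 40 pore-forming and modifier genes of the voltage-gated class, the level was 46.6, 55.1 and 58.5 CPM per kb in the libraries labelled 2KO and 11.2, 13.1 and 11.4 in those labelled control. Kcna1 made up between 31.9% and 33.1% of this sum in libraries labelled 2KO and between 5.09% and 12.6% in those labelled control, and without it the sums were 31.7, 37.1 and 39.1 under the 2KO label, against 9.77, 11.7 and 10.8 under the control label. The 8 pore-forming genes of the calcium-activated class summed to 7.41, 7.25 and 9.26 CPM per kb under the 2KO label, against 1.67, 1.33 and 1.53 under the control label. For the inward rectifiers the groups overlapped, with 18.5, 34.2 and 48.2 CPM per kb under the 2KO label, against 26.5, 30.8 and 26.2 under the control label. Two-pore genes overlapped too, with 25.5, 33.0 and 24.8 under the 2KO label, against 15.5, 26.4 and 17.9 under the control label. By mean level per kb, Kcnj15 (20.4), Kcna1 (17.4), Kcnk1 (16.6) and Kcnj13 (8.56) led in the libraries labelled 2KO, and Kcnj15 (16.0), Kcnj13 (7.34), Kcnk1 (7.14) and Kcnk2 (4.44) in those labelled control. In the libraries labelled control Kcna1 averaged 1.14 CPM per kb.

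**Figure D4:**
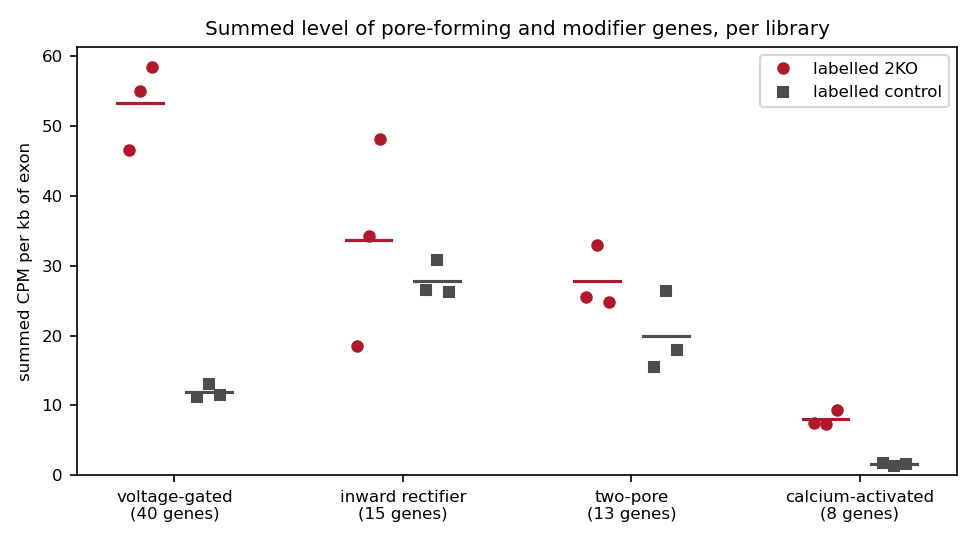
Summed level of the pore-forming and modifier genes of each channel class in CPM per kb of exon, 1 point per library, with the group mean as a line. Circles are the libraries labelled 2KO and squares those labelled control. The 2 groups lie apart for the voltage-gated and calcium-activated classes and overlap for the inward rectifiers and the two-pore genes.

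The 35 members that were not tested include 4 with 0 counts in all 6 libraries (Kcna10, Kcnk15, Kcnmb2 and Kcns2). Group means of the other 31 reached at most 1.64 CPM in libraries labelled 2KO and 0.43 CPM in those labelled control. With no filter on low counts, 91 members were tested, of which 21 rose and 3 fell, in a fit where 8.18% of all genes passed.

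Other genes of potassium transport were examined as a list of 40, of which 26 were tested. Among all tested genes 6.61% were higher and 2.42% lower in the libraries labelled 2KO, with a median log2 fold change of -0.02. Of the 26 on the list 3 rose, 1 fell and 22 did not pass, and their median log2 fold change was 0.26. The rises were those of Abcc8, given above, of Atp1b1, a beta subunit of the sodium-potassium pump, and of Slc12a7, a potassium-chloride cotransporter. Atp1b1 was at 50.5, 55.2 and 57.1 CPM under the 2KO label, against 15.7, 22.7 and 10.7 CPM under the control label (1.73, SE 0.28, edgeR adjusted p = 0.00587). Another beta subunit gene of the pump, Atp1b3, fell, at 98.4, 88.1 and 106 CPM under the 2KO label, against 137, 209 and 149 CPM under the control label (-0.76, SE 0.20, adjusted p = 0.0428), and its call was lost on dropping 2KO replicate 1, 2 or 3 (0.0843, 0.154 and 0.0838) or control replicate 2 or 3 (0.16 and 0.0862). Slc12a7 was at 38.5, 41.1 and 45.8 CPM under the 2KO label, against 17.8, 25.7 and 20.8 CPM under the control label (0.96, SE 0.22, adjusted p = 0.0263), and lost its call on dropping 2KO replicate 2 or 3 (0.0705 and 0.0735) or control replicate 1 or 3 (0.0837 and 0.0974).

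Markers of some other cell types moved in the same libraries as the channel rises. Of 5 tested Merkel cell genes 2 rose (Krt18 and Piezo2), and the list summed to between 55 and 92.4 CPM in libraries labelled 2KO and between 14.3 and 23.9 CPM in those labelled control. Its defining gene Atoh1 measured 0, 0 and 0.196 CPM in libraries labelled 2KO and 0.887, 3.49 and 0.229 CPM in those labelled control. Most of the Merkel cell sum came from Krt18 and Piezo2. Krt20 and Krt8 had lower means under the 2KO label and Sox2 a higher one (log2 fold changes -2.56, -0.98 and 1.17), and none of them passed. Of 7 tested dermal fibroblast genes 1 rose (Pdgfra), with sums between 618 and 734 CPM under the 2KO label, against 400 to 743 CPM under the control label. Of 4 tested muscle genes 1 rose (Acta2), with sums between 7.96 and 21.9 CPM under the 2KO label, against 6.3 to 8.51 CPM under the control label. Acta2 made up most of the muscle sums under the 2KO label. Myh11, Des and Myh3 did not pass (log2 fold changes -0.72, -1.45 and 0.11). The Schwann and nerve list summed to between 92 and 123 CPM under the 2KO label, against 116 to 134 CPM under the control label, most of it from Erbb3, a gene that keratinocytes also express. The melanocyte list summed to between 20 and 70.3 CPM under the 2KO label, against 21.8 to 30.1 CPM under the control label. The part of these cells in the levels of the channel genes was not tested.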

How the data were processed

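RNA was measured in 6 libraries, 3 labelled 2KO and 3 labelled control. Per the labels' protocols, cells were sorted from digested back skin, 10 ng of RNA was amplified with a Nugen kit, and single reads of 100 nucleotides were sequenced. No molecular identifiers are named, so intervals and floors reflect counting error alone. What the authors deposited are raw counts of reads per gene symbol. The submitters' processing notes name build mm10 with HTSeq 0.6.1, TopHat2 2.0.13, DESeq2 1.6.3 and Cufflinks 2.2.1. Annotation, strand and filters: not given in the sources used here.

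From these counts, genes were kept by filterByExpr (14972 of 24453), scaled by TMM and compared by edgeR 4.0.16 (R 4.3.3) with its quasi-likelihood test and no covariate, with Benjamini-Hochberg adjustment over all tested genes and a threshold of 0.05. The procedure was tested on simulated data. Standard errors are fold changes (log2) over the root of F. Where a group held 1 to 3 counts, the ratio has a 95% exact interval. Coordinates, exon lengths and overlaps are from GENCODE vM21 (GRCm38), in which 98.3% of rows matched. Alternatives were DESeq2 1.42.0, RLE scaling, 2 other filters, a replicate block, Xist as a covariate and libraries left out. Genes were named by rule: members past the threshold, the 2 most abundant and the 2 nearest to the threshold of each class, and the called genes of the transport list. A few genes that this rule names are not reported here. Members and lists were chosen with earlier results of these data known.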

Additional observations from a re-analysis of the deposited data

How the results depend on the processing

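The number of risen channel genes was 18 in the reported fit and 18 with RLE size factors, 22 with DESeq2, 21 with no low-count filter, 17 with the CPM filter and 16 with Xist as a covariate, and it fell to 4 once both libraries numbered 3 were dropped, where 2 libraries were set against 2. In that fit only the libraries labelled 2KO were high in Xist. The number of rises was 14 without the libraries numbered 1, and between 12 and 17 with a single library left out. Of the 18 reported rises all 18 were kept by DESeq2. The number of fallen channel genes was 2, and 4 with DESeq2, 3 without a filter, and 1 with the CPM filter, with Xist as a covariate, without either pair numbered 1 or 3, and between 1 and 2 with a single library left out. Deviations of same-numbered libraries correlated at r = 0.29, 0.089 and -0.0756 for numbers 1, 2 and 3. Those of differently numbered libraries lay between -0.266 and 0.212. These values do not settle whether the numbers mark pairs. The labels state no pairing, and the reported fit used none. With the replicate block 21 channel genes rose and 2 fell, with 18 of the rises and 1 of the falls kept, while over all genes 1142 rose and 540 fell (11.2% passed, against 9.02% in the reported fit). Over all genes 989 rose and 362 fell. DESeq2 gave 1492 and 765, the Xist covariate 231 lower, dropping both numbered 3 309 and 72, and single libraries left out between 615 and 854 higher and between 184 and 347 lower. Other potassium transport genes numbered 3 higher and 1 lower. They were 5 higher with DESeq2, 1 higher and 0 lower without those numbered 3, 0 lower with the Xist covariate and without those numbered 1, and between 0 and 1 lower and 2 and 3 higher with single libraries left out. The log2 fold change of Kcnj15, 0.35, turned to -0.22 in the fit lacking both libraries numbered 3, and lay between -0.11 and 0.82 with single libraries left out. The causes of these shifts were not tested. Some of the fits held fewer libraries. At this depth 1 count is worth at least 0.0323 CPM, so members with a few counts per library could not be compared.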

Other observations

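Several members too low for the edgeR test held counts mostly in one group. Kcnn4, a calcium-activated channel gene of intermediate conductance, held 71, 64 and 0 counts in the libraries labelled 2KO and 0, 10 and 10 in those labelled control. Kcnf1, a modifier gene, held 41, 11 and 0 counts in libraries labelled 2KO, against 0 in every library labelled control, at least 19.2-fold higher against 3 counts over the group. For Kcnc2, a Shaw-type gene, all 51 counts came from 2KO replicate 3. Kcnj3, an inward rectifier gene opened by G proteins, held 17, 6 and 33 counts under the 2KO label, against 1, 0 and 4 under the control label, and shares 1621 bases of exon with Gm26794 on the other strand. In the other direction Kcnj10, whose protein is a known partner of that of Kcnj16, was at 0 counts in all 3 libraries labelled 2KO and at 17, 0 and 21 counts in those labelled control. DESeq2, which tested them, called Kcnf1 (adjusted p = 0.032) and did not call Kcnn4, Kcnc2, Kcnj3 or Kcnj10 (adjusted p = 0.216, 0.0854, 0.0864 and 0.115), each with an unadjusted p under 0.05.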
